A study of Mus musculus with 6 samples.

Results

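The white adipocyte genes of dorsal neck skin were examined in mice with an activated YAP transgene in the epidermis. The set holds 10 of the 26579 genes in the count table, namely *Adipoq*, *Lep*, *Retn*, *Cfd*, *Plin1*, *Plin4*, *Cidec*, *Fabp4*, *Lpl* and *Pck1*, which were chosen by name and matched to their Ensembl identifiers through the GENCODE M21 annotation of GRCm38. RNA-Seq had been carried out on skin of 3 wild type (WT) and 3 YAP2-5SA-∆C (TG) mice, all females of postnatal day 33 and littermates across genotype. The transgene encodes a mildly active YAP mutant that is made in basal keratinocytes, and the mice were sampled as the skin phenotype first became visible from outside. Each sample was a whole skin punch biopsy from 1 mouse, taken after the fur had been trimmed, and therefore holds epidermis, hair follicles, dermis, fat and any muscle that came with the punch. No sorting by cell type had been done.

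White adipocytes store triglyceride in a single large lipid droplet and release fatty acids and hormones. In mouse skin they form a layer beneath the dermis that surrounds the lower hair follicle and grows and shrinks with the hair cycle. Their characteristic genes encode secreted adipokines, proteins that coat the lipid droplet, and proteins that bring in, carry and re-esterify fatty acids, and many of these genes are activated by the nuclear receptor PPARγ and by C/EBP factors.

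None of the 10 genes passed the test for a difference between the genotypes. All 10 passed the filter on low counts (a CPM, or count scaled to library size, of 1 or more in 3 or more libraries), with between 245 and 10019 counts in each library. With edgeR's quasi-likelihood test and Benjamini-Hochberg adjustment (FDR), 0 of 10 had an FDR below 0.05, against 1.91% of the 15102 genes tested (288 genes, 1.44% higher and 0.464% lower in TG skin). At an unadjusted p below 0.05 the count was also 0 of 10, against 26.3% of all genes tested, and 0 of 10 were called by edgeR's likelihood-ratio test, by voom or by DESeq2, which called 10.4%, 1.65% and 10.5% of all genes. The ranges of the genotypes overlapped for all 10 genes, whereas 33.8% of tested genes had WT and TG ranges that did not overlap. The point estimates were higher in TG skin for 5 genes and lower for 5, and their median log2 fold change was 0.0044, beside -0.013 over all genes tested. In whole tissue, a smaller number of adipocytes and less RNA per adipocyte cannot be told apart, and neither can opposite changes of both.

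Total counts per library lay between 11225705 and 19505036, both ends being WT libraries, and CPM values are scaled by TMM, a factor that corrects for differences in RNA composition between libraries. The tissue had the defining genes of white fat in every library. Of the tissue around the fat, the hair shaft and inner root sheath markers had a summed level between 13060 and 16950 CPM in WT and of 6872, 1489 and 8835 CPM in TG replicates 1, 2 and 3, with 0 of the 11 markers called by edgeR's quasi-likelihood test (9 at an unadjusted p below 0.05, all lower). Since whole skin is a mixture, these levels are given beside the fat genes, and their part in any value below was not tested.

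Among the secreted products, *Adipoq* encodes adiponectin, the most adipocyte-restricted of these hormones (ENSMUSG00000022878, chromosome 16 of GRCm38 from 23146536 to 23158028, plus strand). It had 109, 165 and 142 CPM in WT replicates 1, 2 and 3 and 111, 132 and 154 CPM in TG replicates 1, 2 and 3. The TG libraries lay inside the WT range. Means were 139 ± 28.1 CPM in WT and 132 ± 21.3 CPM in TG skin (SD, n = 3 each), a fold of 0.952 with a 95% interval of 0.719 to 1.26 (log2 fold change -0.07, SE 0.17; edgeR FDR = 0.822).

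*Lep* encodes leptin, the hormone that reports fat stores to the brain (ENSMUSG00000059201, chromosome 6 from 29060220 to 29073877, plus strand). Its levels were 27.7, 32.1 and 23.3 CPM in WT and 25.0, 26.0 and 34.3 CPM in TG replicates 1, 2 and 3. WT replicate 3 was the lowest library and TG replicate 3 the highest, with the other libraries mixed between them. The log2 fold change was 0.035 (SE 0.16, 95% interval -0.34 to 0.41; edgeR FDR = 0.906).

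*Retn*, which encodes resistin, a small adipocyte hormone linked to insulin action in rodents (ENSMUSG00000012705, chromosome 8 from 3655770 to 3660110, plus strand), had 37.9, 46.1 and 40.2 CPM in WT and 27.0, 42.3 and 49.6 CPM in TG skin. Both the lowest and the highest library were TG. Its log2 fold change was -0.06 (SE 0.21, interval -0.56 to 0.43; edgeR FDR = 0.871).

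*Cfd* encodes adipsin, the complement factor D that adipocytes release (ENSMUSG00000061780, chromosome 10 from 79890853 to 79892655, plus strand). It had 310.0, 387 and 317 CPM in WT and 271, 449 and 409 CPM in TG skin. Its TG libraries again spread over a wider range than the WT libraries and enclosed it. The log2 fold change was 0.16 (SE 0.19, interval -0.29 to 0.60; edgeR FDR = 0.636).

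**Figure D1:**
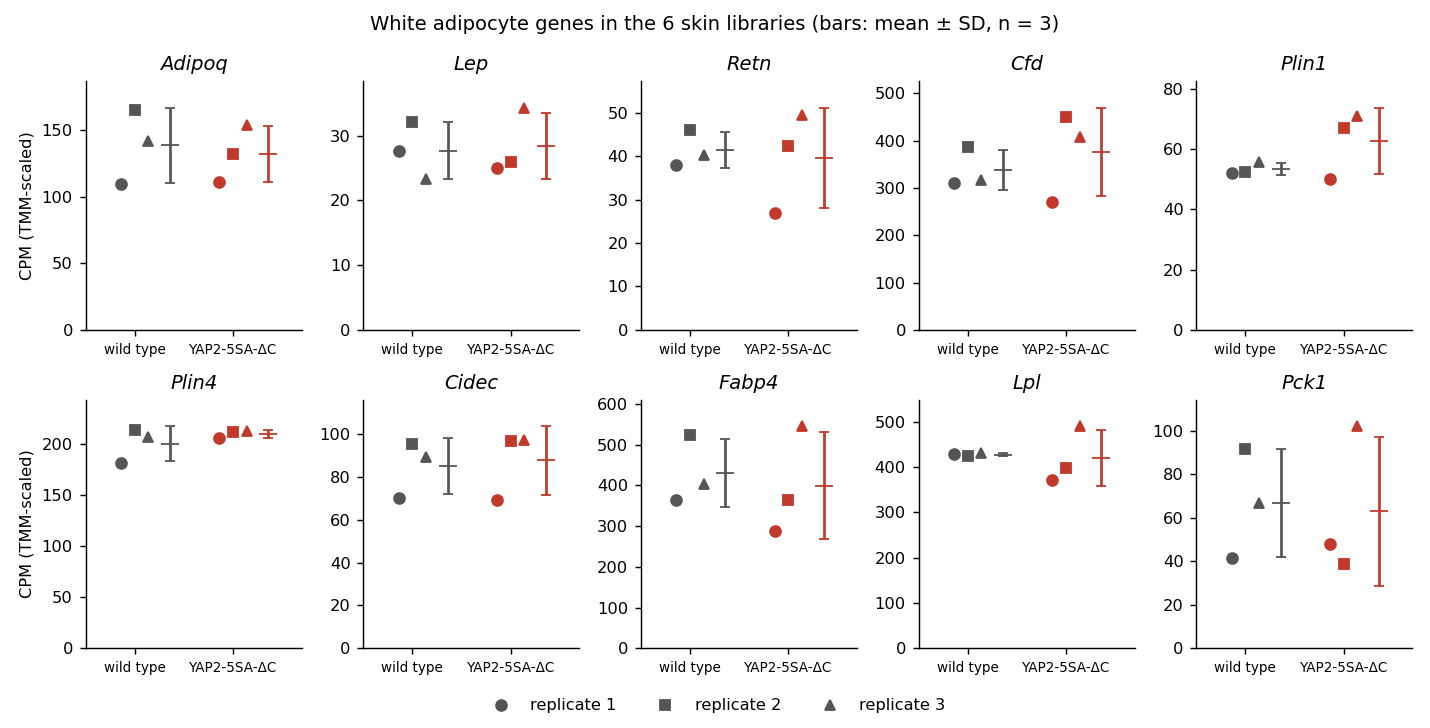
TMM-scaled CPM (y axes, from 0) of the 10 white adipocyte genes in each WT library (grey) and each YAP2-5SA-∆C library (red), with marker shapes for replicates 1 to 3 and bars for the mean ± SD of 3 mice. In each of the 10 panels the ranges of the genotypes overlap, and TG replicate 1 (red circle) is the lowest TG library in 9 panels.

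Of the lipid droplet genes, *Plin1* encodes perilipin 1, which guards the adipocyte droplet against lipases (ENSMUSG00000030546, chromosome 7 from 79720218 to 79732903, minus strand). It had 52.1, 52.3 and 55.8 CPM in WT and 50.1, 66.9 and 71.0 CPM in TG skin. TG replicates 2 and 3 were above all WT libraries, while TG replicate 1 was below them. This was the largest point estimate of the set, a log2 fold change of 0.23 (SE 0.13, interval -0.07 to 0.53), and it did not pass the test (edgeR FDR = 0.292). With each library left out in turn its estimate ran from 0.13 to 0.39, and the lowest FDR was 0.0688.

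*Plin4* encodes perilipin 4, found on small nascent droplets of adipocytes and also in muscle (ENSMUSG00000002831, chromosome 17 from 56100591 to 56109803, minus strand). It had 181, 214 and 207 CPM in WT and 206, 212 and 213 CPM in TG skin. The TG libraries fell within a narrow span inside the WT range. Its interval was the narrowest of the 10, with a log2 fold change of 0.07 (SE 0.074, interval -0.11 to 0.24; edgeR FDR = 0.591). *Plin4* is the only one of the 10 genes whose position overlaps another gene, *Hdgfl2* on the opposite strand with 235 to 456 counts per library. The strand setting of the counting is not given in the sources used here, so the effect of the overlap on the *Plin4* counts is not known.

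*Cidec* encodes the droplet fusion protein also known as FSP27, which makes the single large droplet of white adipocytes (ENSMUSG00000030278, chromosome 6 from 113424634 to 113435760, minus strand). It had 70.1, 95.5 and 89.1 CPM in WT and 69.2, 96.7 and 96.9 CPM in TG skin. Replicate 1 of each genotype was low and the other 4 libraries were close together. The log2 fold change was 0.045 (SE 0.16, interval -0.34 to 0.43; edgeR FDR = 0.882).

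Of the genes that bring in and handle fatty acids, *Fabp4* encodes the adipocyte fatty acid carrier, which capillary endothelium and macrophages also make (ENSMUSG00000062515, chromosome 3 from 10204088 to 10208576, minus strand). It had 363, 524 and 404 CPM in WT and 289, 363 and 545 CPM in TG skin. TG libraries were both the lowest and the highest. The log2 fold change was -0.11 (SE 0.24, interval -0.68 to 0.46; edgeR FDR = 0.806).

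*Lpl* encodes lipoprotein lipase, which frees fatty acids from circulating lipoproteins and is also made by muscle and macrophages (ENSMUSG00000015568, chromosome 8 from 68880491 to 68907448, plus strand). Its WT libraries were almost equal at 428, 424 and 431 CPM, and its TG libraries had 371, 398 and 490.2 CPM. TG replicates 1 and 2 were below all WT libraries and TG replicate 3 above them. The log2 fold change was -0.03 (SE 0.11, interval -0.28 to 0.22; edgeR FDR = 0.893).

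*Pck1* encodes the cytosolic phosphoenolpyruvate carboxykinase, which supplies glycerol 3-phosphate for re-esterification in adipocytes (ENSMUSG00000027513, chromosome 2 from 173153048 to 173159273, plus strand). It had 41.8, 91.7 and 66.9 CPM in WT and 48.1, 39.0 and 102 CPM in TG skin. *Pck1* was the most variable of the 10, with a highest library 2.20 times the lowest in WT and 2.62 times in TG skin. Its log2 fold change of -0.08 (SE 0.41; edgeR FDR = 0.913) had an interval in fold terms of 0.483 to 1.85, so that a reduction of slightly more than 2-fold was not outside it.

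For the other 9 genes the whole 95% interval lay within a 2-fold change in either direction, which was true of 85.2% of all genes tested. An FDR above 0.05 does not show equal levels, and differences inside each interval remain possible. The plot of genotype differences sets these estimates beside 4 lipid genes of other lists.

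**Figure D2:**
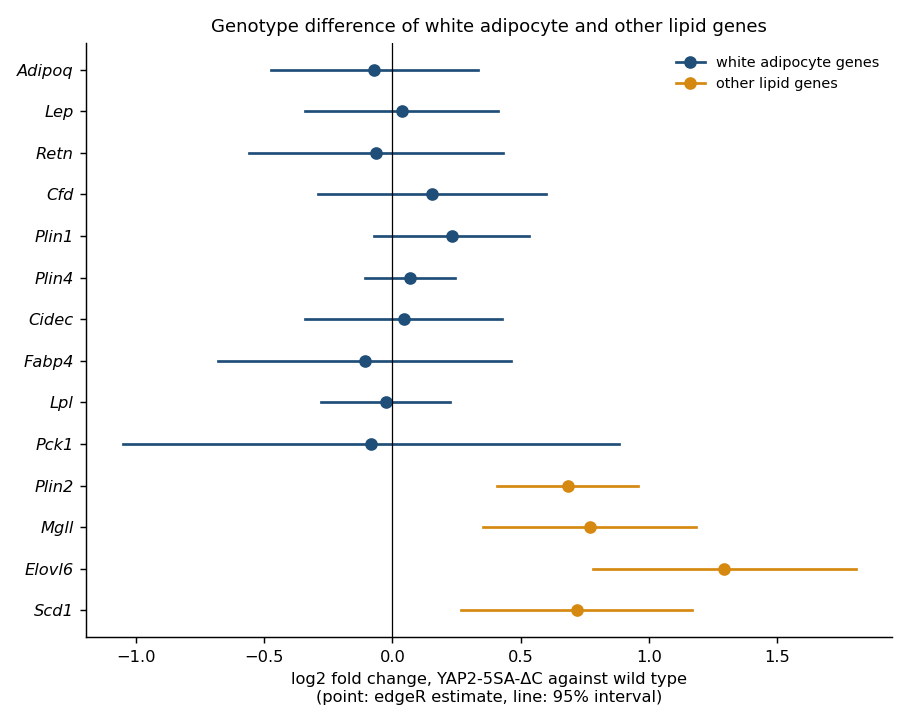
Log2 fold change of YAP2-5SA-∆C against WT skin (x axis, points) with 95% intervals (lines) from edgeR for the 10 white adipocyte genes (blue) and for *Plin2*, *Mgll*, *Elovl6* and *Scd1* (orange), the genes with the lowest p-values of the lipid droplet and triglyceride synthesis lists. All 10 blue intervals include 0, and the *Pck1* interval is the only blue one that extends past -1.

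When CPM was divided by the length of the principal transcript, so that levels could be compared between genes, *Fabp4* (463 ± 112 CPM per kb, SD, n = 6) and *Cfd* (387 ± 73.9) were the most abundant, and their ranges over the 6 libraries overlapped. *Adipoq* (105 ± 17.5) and *Lpl* (103 ± 9.67) followed and could not be ordered, and both stood clear of *Cfd* above and *Cidec* (50.2 ± 7.65) below. *Plin4* (35.7 ± 2.14), *Retn* (35.6 ± 6.87), *Pck1* (24.4 ± 10.1) and *Plin1* (20.6 ± 3.10) formed a chain in which each neighbour overlapped the next. *Lep* was the lowest at 8.61 ± 1.32 CPM per kb, with a range below that of *Plin1*. The level of a hormone transcript says nothing of the amount of hormone released.

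The balance among the genes was compared with *Adipoq* as the reference. The log2 ratio of each of the other 9 genes to *Adipoq* was taken within each library. Differences of the mean ratio between TG and WT skin ran from -0.08 for *Fabp4* to 0.28 for *Plin1*, and the genotypes overlapped for all 9 ratios. Two-sided exact permutation tests gave p from 0.3 to 0.9 and an adjusted p of 0.9 for each of the 9 comparisons, where 3 libraries against 3 cannot give a p below 0.1.

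Within each genotype, by contrast, the libraries were ordered much alike by most of the 10 genes. In WT skin, replicate 2 had the highest level for 8 genes, the exceptions being *Plin1* and *Lpl* (highest in replicate 3), and replicate 1 the lowest for 8, with *Lep* lowest in replicate 3 and *Lpl* in replicate 2. In TG skin, replicate 3 was the highest for 9 genes (*Cfd* was highest in replicate 2) and replicate 1 the lowest for 9 (*Pck1* was lowest in replicate 2). Of all genes tested, 31.4% were highest in WT replicate 2, 32.6% lowest in WT replicate 1, 32.3% highest in TG replicate 3 and 29.5% lowest in TG replicate 1. The summed level of the 10 genes was 1621, 2031 and 1775 CPM in WT and 1468, 1824 and 2164 CPM in TG replicates 1, 2 and 3. The TG libraries thus held both the lowest and the highest sum.

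In the median, the 10 genes varied more between mice of 1 genotype than the genes tested did. The median SD of log2 CPM was 0.20 in WT and 0.27 in TG skin for the 10 genes, and 0.12 and 0.13 over all genes tested. *Pck1* had the largest SD in both genotypes (0.57 in WT and 0.73 in TG skin), and 96.5% and 97.3% of tested genes had a smaller one. At the low end were *Lpl* (0.012) and *Plin1* (0.054) in WT and *Plin4* (0.028) in TG skin, with 0.987%, 17.7% and 4.83% of tested genes below them. The SD was larger in TG than in WT skin for 8 of 10 genes, beside 54.8% of all genes tested, and smaller for *Adipoq* and *Plin4*. All 10 genes were read from the same 6 libraries, so they are not independent observations of a wider spread.

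**Figure D3:**
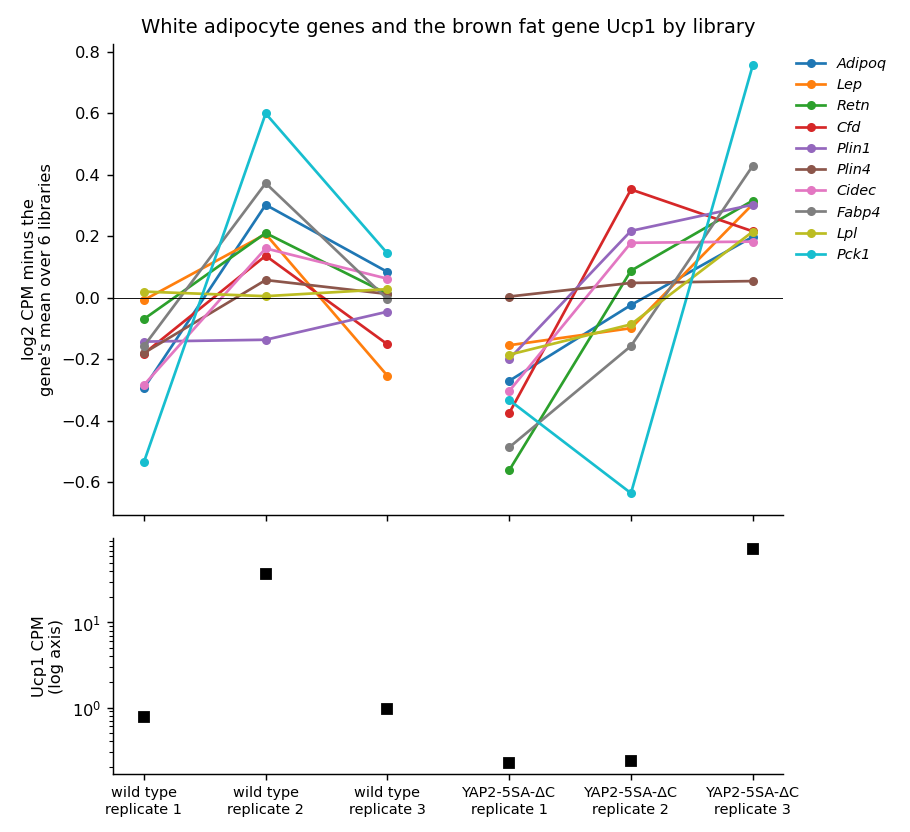
Upper panel, log2 CPM of each white adipocyte gene minus its own mean over 6 libraries (y axis) in each library (x axis), with lines that only join the values of a gene within a genotype. Lower panel, CPM of *Ucp1* on a log axis in the same libraries, which is 37.3 in WT replicate 2 and 72.8 in TG replicate 3 and below 1 in the other 4.

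The library with the highest summed level of the 10 genes in each genotype was also the one with the most *Ucp1*. This gene, which encodes the uncoupling protein that defines brown and beige adipocytes (ENSMUSG00000031710), had 0.770, 37.3 and 0.951 CPM in WT and 0.223, 0.235 and 72.8 CPM in TG replicates 1, 2 and 3, from 14, 712, 10, 4, 4 and 1167 counts. It passed 1 CPM in fewer than 3 libraries and was not tested. Besides *Ucp1*, only *Otop1* and *Slc27a2* were at least 3-fold higher in both of these libraries than in each of the other 4 with at least 1 CPM in both, a search made after the *Ucp1* values were seen. *Otop1* had 2.15 and 3.62 CPM in WT replicate 2 and TG replicate 3 and at most 0.278 CPM elsewhere. *Slc27a2*, a fatty acid transporter, had 1.88 and 3.12 CPM there and at most 0.278 CPM elsewhere. The part of brown or beige adipocytes in the summed level of the 10 genes was not tested.

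No other marker on the brown and beige list met this rule of a level at least 3-fold higher in both libraries. The rule does not exclude smaller differences between libraries. *Cox7a1*, a subunit of cytochrome oxidase shared by brown fat and muscle, had 3.13, 13.6 and 9.04 CPM in WT and 6.34, 4.41 and 7.49 CPM in TG skin, and *Cox8b*, another such subunit, had 4.29, 17.6 and 11.1 CPM in WT and 8.12, 4.94 and 11.1 CPM in TG skin. Their log2 fold changes were -0.50 (SE 0.48; edgeR FDR = 0.544) and -0.45 (SE 0.50; FDR = 0.599), and that of *Ppargc1a*, a coactivator of mitochondrial genes, was -0.53 (SE 0.25; FDR = 0.222). *Dio2*, the deiodinase that activates thyroid hormone in brown fat and in other tissues, rose from 11.9, 12.3 and 12.3 CPM in WT to 18.7, 26.1 and 20.8 CPM in TG skin (log2 fold change 0.85, SE 0.13; edgeR FDR = 0.0401) and was the only one of the 7 tested brown and beige markers called by the quasi-likelihood test (2 at an unadjusted p below 0.05, and 2, 1 and 1 called by the likelihood-ratio test, voom and DESeq2). *Cidea*, a droplet protein of brown fat that sebocytes also make, had 19.8, 18.9 and 7.90 CPM in WT and 24.6, 31.5 and 44.9 CPM in TG skin (log2 fold change 1.10, SE 0.36; edgeR FDR = 0.117). Of the 7 tested markers, 4 point estimates were higher and 3 lower in TG skin. The part of muscle in the *Cox7a1* and *Cox8b* values was not tested.

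The comparison of the 10 genes was therefore repeated without WT replicate 2 and TG replicate 3, an alternative added after seeing the data. None of the 10 was called (lowest p 0.125 and lowest edgeR FDR 0.414), and with 4 libraries 0 of 14730 genes (0.0%) were called at all, 15.9% having an unadjusted p below 0.05. The log2 fold changes were then -0.05 for *Adipoq*, -0.0011 for *Lep*, -0.17 for *Retn*, 0.20 for *Cfd*, 0.12 for *Plin1*, 0.11 for *Plin4*, 0.060 for *Cidec*, -0.23 for *Fabp4*, -0.16 for *Lpl* and -0.32 for *Pck1*.

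The genes whose levels were most like those of the white adipocyte set over the 6 libraries, outside all gene lists used here, were *Ap2s1* (Pearson r = 0.993 with the mean centred log2 CPM of the 10 genes), *Sik2* (0.990), *Adhfe1* (0.985), *Pfkfb1* (0.979), *Ces1f* (0.976), *Trarg1* (0.974), *Gkap1* (0.971) and *Abcd2* (0.969). These r values are the highest among the tested genes outside the lists, over only 6 libraries, and are given as a description, without a test. *Ap2s1* encodes a subunit of a clathrin adaptor, *Trarg1* a regulator of the insulin-responsive glucose transporter in fat cells, and *Sik2* a kinase abundant in adipocytes. *Sik2* had 65.7, 73.4 and 70.5 CPM in WT and 62.7, 69.4 and 78.2 CPM in TG skin. The set's own genes had r from 0.586 (*Plin4*) to 0.963 (*Fabp4*) with the mean that includes them.

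Promoter sequences from 250 bases before to 50 bases after the start site were taken from RefSeq (GRCm38.p6), which gave 9 promoters for 8 of the 10 genes; none was held for *Fabp4* and *Lpl*. They were searched for the letters of binding elements of the adipogenic factors, as a description only. The PPAR direct repeat AGGTCANAGGTCA, on either strand, was in 0 of 9 promoters and in 13 of 32851 promoters of all genes (0.0396%), and its single element AGGTCA in 0 of 9 and in 16.3%. The C/EBP palindrome TTGCGCAA, on either strand, was in the *Lep* promoter, in 1 of 9 against 0.183% of all promoters. The TATA letters TATAAA on the gene's strand were in 0 of 9 against 8.32%. The *Lep* match is shown because it is the one adipogenic element found, with capitals for the palindrome, at positions -55 to -48 from the start site, in chr6:29060155-29060184, plus strand, read 5′ to 3′:
Lep: tggccggacagTTGCGCAAgtggcactggg
A match of letters is not a bound site, and the absence of a match says only that these letters are not in this window.

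The wider pathways around the 10 genes were examined through 5 lists. Of 12 adipogenic transcription factors, 0 were called by edgeR's quasi-likelihood test (4 at an unadjusted p below 0.05, 3 higher and 1 lower, beside 26.3% of all genes tested), with 1 called by the likelihood-ratio test, 0 by voom and 2 by DESeq2 (beside 10.4%, 1.65% and 10.5% of all genes), and a median log2 fold change of 0.16. *Pparg*, the master regulator of fat cell formation, had 27.4, 30.1 and 23.0 CPM in WT and 28.3, 31.4 and 37.0 CPM in TG skin (log2 fold change 0.26, SE 0.13; edgeR FDR = 0.260). *Cebpa*, its partner, which keratinocytes and sebocytes also express, had 115, 114 and 118 CPM in WT and 134, 186 and 143 CPM in TG skin (log2 fold change 0.42, SE 0.12; edgeR FDR = 0.0897). *Klf15*, a factor of fasting metabolism, was at 10.6 ± 0.664 CPM in WT (SD, n = 3) and at 7.95, 6.59 and 7.68 CPM in TG skin (log2 fold change -0.52, SE 0.11; edgeR FDR = 0.0597). The genotypes did not overlap for *Cebpa* and *Klf15* and overlapped for *Pparg*. *Srebf1* (log2 fold change 0.36, edgeR FDR = 0.120) and *Rxra* (0.23, FDR = 0.161), a regulator of lipid synthesis and the PPAR partner receptor, completed the 4 genes with the lowest p-values.

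Among 14 lipid droplet and lipolysis genes, 1 rose and 13 did not pass the test, with a median log2 fold change of 0.26. At an unadjusted p below 0.05 there were 7 of 14, all higher, beside 26.3% of all genes tested. The likelihood-ratio test, voom and DESeq2 called 4, 1 and 3 (beside 10.4%, 1.65% and 10.5% of all genes). The gene that rose was *Plin2*, the perilipin of droplets in cells of all kinds. It had 108, 106 and 85.6 CPM in WT and 146, 154 and 181 CPM in TG skin (99.8 ± 12.4 against 160.4 ± 18.2 CPM, SD, n = 3; log2 fold change 0.68, SE 0.12, interval 0.41 to 0.96; edgeR FDR = 0.0436). All TG libraries were above all WT libraries, unlike those of the adipocyte perilipins *Plin1* and *Plin4*. The call held without TG replicate 2 (FDR = 0.0263) and was lost without any of the other 5 libraries (edgeR FDR from 0.0649 to 0.179). *Mgll*, which cleaves monoacylglycerol, had 325, 244 and 192 CPM in WT and 414, 453 and 431 CPM in TG skin (log2 fold change 0.77, SE 0.18; edgeR FDR = 0.0621), and *Hilpda* and *Abhd5*, regulators of the droplet lipase ATGL, had log2 fold changes of 0.61 and 0.27 (FDR = 0.0634 and 0.110). The hormone-sensitive lipase gene *Lipe*, a gene typical of fat cells, had a log2 fold change of 0.087 (SE 0.13; edgeR FDR = 0.707).

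Of 17 genes of triglyceride synthesis and insulin-responsive metabolism, 1 rose and 16 did not pass, 16 of 17 point estimates were positive (beside 47.6% of all genes tested) and the median log2 fold change was 0.32. At an unadjusted p below 0.05 there were 5 of 17, all higher, beside 26.3% of all genes. The likelihood-ratio test, voom and DESeq2 called 4, 1 and 5 (beside 10.4%, 1.65% and 10.5% of all genes). *Elovl6*, an elongase of newly made fatty acids, rose from 583, 434 and 319 CPM in WT to 935, 1141 and 1200 CPM in TG skin (445 ± 132 against 1092 ± 139 CPM, SD, n = 3; log2 fold change 1.30, SE 0.22, interval 0.78 to 1.81; edgeR FDR = 0.0436). This call held without WT replicate 1 or TG replicate 2 and was lost without any of the other 4 libraries (edgeR FDR from 0.0677 to 0.186). *Scd1*, the desaturase of sebocytes and fat cells, had 3056, 2847 and 2424 CPM in WT and 3452, 5061 and 5199 CPM in TG skin (log2 fold change 0.72, SE 0.19; edgeR FDR = 0.0773). The genotypes did not overlap for either gene. *Dgat1*, which makes triglyceride, and *Me1*, a source of NADPH for lipid synthesis, had log2 fold changes of 0.50 and 0.54 (edgeR FDR = 0.0867 and 0.110).

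Fatty acid uptake and the partners of lipoprotein lipase had 0 of 10 tested genes called by edgeR's quasi-likelihood test, 1 at an unadjusted p below 0.05, 0 by the likelihood-ratio test and voom and 1 by DESeq2, with a median log2 fold change of 0.029. The shares over all genes tested were 1.91%, 26.3%, 10.4%, 1.65% and 10.5% in the same order. *Fabp5*, the fatty acid carrier of epidermis, had 445, 496 and 433 CPM in WT and 566, 505 and 755 CPM in TG skin (log2 fold change 0.41, SE 0.15; edgeR FDR = 0.145). *Angptl4*, an inhibitor of lipoprotein lipase, had a log2 fold change of -0.28, and the uptake genes *Slc27a1* and *Acsl1* of 0.21 and 0.19, with FDR from 0.326 to 0.428. *Cd36* and *Gpd1* followed the library order of the white adipocyte genes (r = 0.965 and 0.972 with their mean). *Gpd1*, which makes glycerol 3-phosphate, had 131, 192 and 156 CPM in WT and 108, 135 and 240 CPM in TG skin.

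Other secreted products and the receptors of the adipocyte hormones had 0 of 10 tested genes called by edgeR's quasi-likelihood test, 1 at an unadjusted p below 0.05, and 0 by the likelihood-ratio test, voom or DESeq2, with a median log2 fold change of 0.065. Over all genes tested these shares were 1.91%, 26.3%, 10.4%, 1.65% and 10.5%. *Nampt*, an enzyme of NAD synthesis also released by fat, had 71.4 ± 1.96 CPM in WT and 82.6 ± 3.16 CPM in TG skin (SD, n = 3; log2 fold change 0.21, SE 0.057; edgeR FDR = 0.0817). *C3*, the complement component upstream of factor D, had a log2 fold change of 0.32, the adiponectin receptor gene *Adipor1* of -0.07 and the retinol carrier gene *Rbp4* of 0.20, with FDR from 0.304 to 0.600. A difference in response between the 10 white adipocyte genes and any of these lists was not tested.

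**Figure D4:**
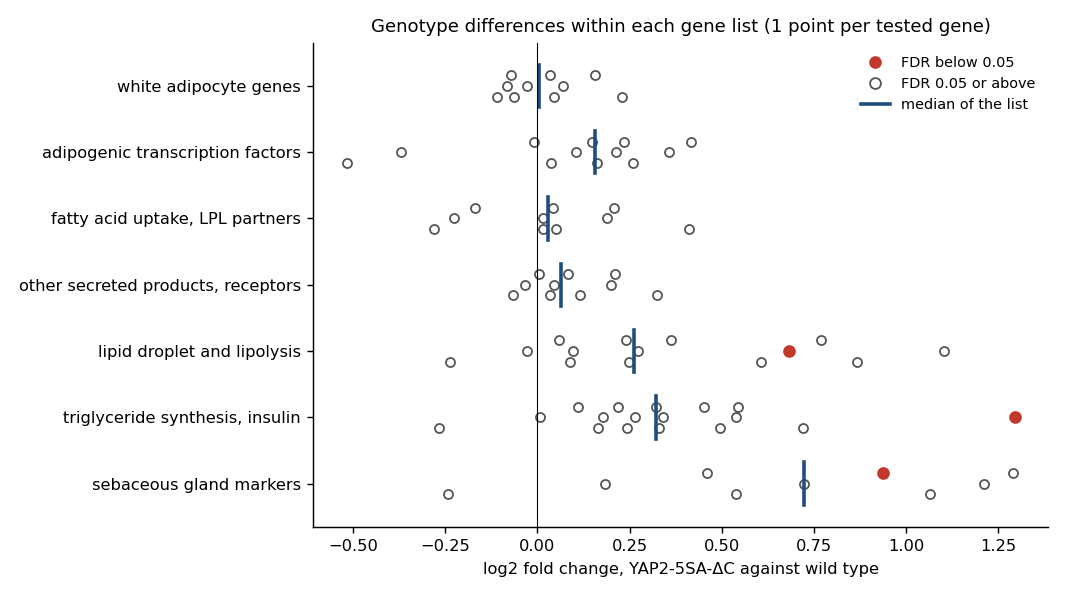
Log2 fold change of YAP2-5SA-∆C against WT skin (x axis) for each tested gene of the white adipocyte set, the 5 pathway lists and the sebaceous gland markers (rows), with filled points for an edgeR FDR below 0.05, open points for the rest and a bar at each list's median. The white adipocyte genes have the median closest to 0, at 0.0044, and the sebaceous gland markers have a median of 0.72.

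Several of the lipid synthesis genes are also made by the sebaceous gland, so markers of the other cell types in the punch were measured. The summed level of 9 sebaceous gland markers, led by *Krt79* and *Far2*, was 1056, 781 and 604 CPM in WT and 1373, 1429 and 1510 CPM in TG replicates 1, 2 and 3. Of these, 1 was called, *Soat1*, which esterifies cholesterol (log2 fold change 0.94, edgeR FDR = 0.0450), 7 had an unadjusted p below 0.05, all higher, and the likelihood-ratio test, voom and DESeq2 called 5, 1 and 6. For these markers and those of the other cell types, the shares over all genes tested were 26.3% at an unadjusted p below 0.05 and 10.4%, 1.65% and 10.5% called by the 3 tools. The part of the sebaceous gland in the higher *Plin2* and *Elovl6* was not tested.

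Of 8 macrophage markers, led by *Mrc1* and *Lyz2*, 2 rose, the mannose receptor gene *Mrc1* (log2 fold change 0.54, edgeR FDR = 0.0341) and *Csf1r* (0.54, FDR = 0.0456), and the summed level was between 496 and 604 CPM in WT and between 722 and 809 CPM in TG skin. At an unadjusted p below 0.05 there were 7 of 8, all higher, the genotypes did not overlap for 8 of 8 (beside 33.8% of all genes), and the likelihood-ratio test, voom and DESeq2 called 4, 2 and 6. *Fabp4* and *Lpl* are also made by macrophages, and the part of macrophages in their values was not tested. Endothelial markers, led by *Pecam1* and *Cdh5*, had 0 of 8 called by edgeR's quasi-likelihood test (3 at an unadjusted p below 0.05, and 1, 0 and 1 by the likelihood-ratio test, voom and DESeq2), with sums between 120 and 141 CPM in WT and between 145 and 175 CPM in TG skin. Adipocyte precursor and dermal fibroblast markers, led by *Col3a1* and *Col1a1*, had 0 of 9 called (4 at an unadjusted p below 0.05, and 0, 0 and 3 by the other tools in the same order). Their sum was lowest in WT replicate 2, at 7824 CPM, the WT library with the highest sum of the white adipocyte genes. It was highest in TG replicate 2, at 13190 CPM. Since collagen genes led this sum, it does not measure adipocyte precursors apart from fibroblasts.

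Skeletal muscle markers, led by *Myh4* and *Acta1*, ranged from 1525 to 7490 CPM in WT and from 1468 to 3762 CPM in TG skin, with 0 of 10 called by edgeR's quasi-likelihood test (0 at an unadjusted p below 0.05, and 1, 0 and 0 by the other tools). All 10 point estimates were below 0, with a median log2 fold change of -1.12. In WT skin the muscle sum had the order of the white adipocyte sum, with replicate 2 highest and replicate 1 lowest, and in TG skin it had the reverse order, with replicate 1 highest and replicate 3 lowest. Of the genes that muscle also makes, *Plin4* had the muscle order in WT skin and *Lpl* did not, and both were highest among TG libraries in replicate 3. The part of muscle in these values was not tested.

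Basal keratinocyte markers, led by *Krt14* and *Krt5*, were higher in sum in TG skin (5903 to 7540 CPM) than in WT skin (3593 to 4358 CPM), with 1 of 7 called, *Krt14* (log2 fold change 0.95, edgeR FDR = 0.0300), 5 at an unadjusted p below 0.05, all higher (beside 26.3% of all genes), and 3, 1 and 5 called by the other tools (beside 10.4%, 1.65% and 10.5%). Hair shaft and inner root sheath markers, led by *Tchh* and *Krt71*, had 9, 0 and 1 of 11 called by the likelihood-ratio test, voom and DESeq2, with sums that did not overlap between genotypes. TG replicate 2, by far the lowest for hair, was the middle TG library in the sum of the white adipocyte genes. Mammary epithelial markers, led by *Elf5* and *Krt18*, were low, between 29.6 and 37.9 CPM in sum in WT and between 4.82 and 16.2 CPM in TG skin, and 1 of 3 tested, *Krt8*, fell (log2 fold change -1.92, SE 0.34; edgeR FDR = 0.0456). All 3 had an unadjusted p below 0.05 and were lower, and the likelihood-ratio test, voom and DESeq2 called 3, 0 and 3. The listed milk protein genes *Csn3* and *Lalba* were too low to be tested. The mammary sum was lowest in TG replicate 2, as was the hair sum. Whether the 3 tested genes were read from mammary tissue was not tested. Of the listed genes found in the table, *Lalba* and *Fgf21* had 0 counts in at least 1 library and the others in none. Without WT replicate 2, WT replicate 3 or TG replicate 3, edgeR called 0 genes of the whole table (18.2%, 19.0% and 24.7% had an unadjusted p below 0.05), so each call named here was lost there.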

How the data were processed

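Alignment by the authors was to GRCm38, with TopHat2 (2.0.12 in the submitters' processing notes, while the study's methods give another version) and Bowtie2 (2.1.0). HTSeq-count then gave the reads with a unique position per Ensembl gene. The deposited table holds these raw counts without normalization for 26579 genes in 6 libraries. The annotation release and strand setting are not given in the sources used here. The labels name a total RNA kit, and the libraries are also described as mRNA.

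Gene names and positions came from GENCODE M21, in which 558 identifiers were absent. Genes reaching 1 CPM in 3 or more libraries were retained, scaled by TMM and tested in R 4.3.3 with edgeR 4.0.16 (glmQLFit in its bias-adjusted form, glmQLFTest), genotype being the only term, at an FDR of 0.05. Intervals are 95% from the moderated spread. The likelihood-ratio test of edgeR, voom (limma 3.58.1), DESeq2 1.42.0, other filters and scalings, a replicate block and omission of each library were alternatives. The code was tested on simulated data. Each library was a separate mouse.

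The 10 genes and all lists were chosen with earlier results of these data known. The genes named are the 10, the 4 lowest p-values and every called gene of each pathway list, the 2 most abundant markers and every called marker of each cell type, and the 8 genes outside the lists most correlated with the set's mean. Further genes (*Pparg*, *Lipe*, *Cd36*, *Gpd1*, *Cox7a1*, *Cox8b*, *Ppargc1a*, *Otop1*, *Slc27a2*, *Fgf21*, *Csn3*, *Lalba* and *Hdgfl2*) were named after their values were seen. *Krt85*, *Csn2* and *Wap* were listed as markers and not analysed here.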

Additional observations from a re-analysis of the deposited data

How the results depend on the processing

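The 10 white adipocyte genes had 0 calls under all 18 alternatives. Over all genes, 288 calls became 444 with library totals alone, 497 without a filter, 1568 with the likelihood-ratio test, 1583 with DESeq2, 0 with a replicate block (2949 at an unadjusted p below 0.05), 0 without both libraries high in *Ucp1* (2347 at an unadjusted p below 0.05), and 0 to 817 with 1 library left out: 142 without WT replicate 1, 83 without TG replicate 1, 817 without TG replicate 2, and 0 without WT replicate 2, WT replicate 3 or TG replicate 3 (2726, 2844 and 3691 at an unadjusted p below 0.05 with edgeR). *Otop1* and *Slc27a2* rest on 0 to 58 counts per library.

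Called transcription factors (0) became 1 with the likelihood-ratio test, 2 with DESeq2 and 0 to 1 with 1 library left out (1 without TG replicate 2). Called lipid droplet genes (1) became 4, 3, 0 with the replicate block, 0 without both *Ucp1*-high libraries and 0 to 1. Called triglyceride synthesis genes (1) became 4, 5, 0 with the block, 0 without both libraries and 0 to 2 (2 without TG replicate 1). Called fatty acid uptake genes (0) became 1 with DESeq2. *Plin2* (log2 fold change 0.68) had 0.68 with the block (FDR = 0.172) and 0.63 without both libraries (0.286), and *Elovl6* (1.30) had 1.33 (0.170) and 1.20 (0.286).

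Of 180 values of the 10 genes, 18 changed sign. With 1 library left out, log2 fold changes ran from -0.21 to 0.073 for *Adipoq*, -0.12 to 0.16 for *Lep*, -0.40 to 0.10 for *Fabp4*, -0.25 to 0.17 for *Retn*, -0.15 to 0.074 for *Lpl*, -0.070 to 0.21 for *Cidec* and -0.62 to 0.22 for *Pck1*. They ran from 0.025 to 0.36 for *Cfd*, 0.0057 to 0.12 for *Plin4* and 0.13 to 0.39 for *Plin1*, without a change of sign. *Lpl* was 0.0074 with library totals alone, and without both libraries *Lep* was -0.0011 and *Rbp4* -0.10. Same-numbered libraries did not deviate together (correlations -0.33, -0.23 and -0.05), no library correlated best with its own number, and the numbers were not used as pairs. The single element in place of the PPAR repeat matched 0 of 9 promoters.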
